A study of Rattus norvegicus with 5 samples.

Results

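Immediate early genes are transcribed within minutes of a stimulus without new protein synthesis. In neurons they are switched on when calcium entry and the MAP kinase pathway activate factors such as CREB and SRF at their promoters, and Fos labelling is a standard mark of spinal neurons driven by noxious input. Many of the same genes also respond to cytokines, growth factors and tissue stress in glia and vascular cells. The set examined here has 32 named genes, matched by gene symbol to the 17321 rows of the deposited count table, and all 32 were found. It holds 8 subunits or partners of the AP-1 transcription factor, 6 transcription factors of the EGR and NR4A families, 4 genes known for neuronal activity, 4 MAP kinase phosphatases, 3 Krüppel-like factors and 7 other immediate early genes.

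RNA came from the lumbar (L4 to L6) dorsal horn of Sprague Dawley rats, where sensory fibres of the leg end, taken at day 9 after surgery. The CCI group had 3 libraries and the SHAM group 2. The letters CCI usually stand for chronic constriction injury, in which a peripheral nerve is loosely ligated to model neuropathic pain; SHAM is surgery without the injury. No genotype or drug is given for either group, and neither age nor sex is used here. The labels do not tie libraries to animals. The p-values therefore reflect library-to-library spread alone, which may be technical. The question put to the genes was whether their RNA differed between the injured and the sham-operated dorsal horn at that day.

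Libraries held 20053353 to 23673198 counts, and ribosomal RNA rows held 16.0% of the counts in CCI 3 and 2.18% to 2.71% in the others. All 9 neuronal markers and the 7 dorsal horn markers found in the table, among them Tac1, Penk and Pdyn, had counts in every library. Marker levels differed between libraries. Summed over 8 microglial markers, the level was 923 to 1034 CPM (counts scaled to library size) after CCI and 249.7 to 299 CPM after SHAM. Over 9 fibroblast markers it was 85.2, 753 and 644 CPM after CCI 1 to 3 and 93.5 and 143 CPM after SHAM 1 and 2. Over 7 Schwann cell markers it was 33.7, 213 and 513 CPM after CCI and 17.5 and 36.8 CPM after SHAM, and over 6 motor neuron markers it was 72.6 to 144 CPM after CCI and 336 to 529.6 CPM after SHAM. None of the fibroblast or Schwann cell markers was at 0. Summed over the 7 dorsal horn markers the level was 366, 478 and 394 CPM after CCI and 256 and 377 CPM after SHAM, highest in CCI 2 and lowest in SHAM 1. All 7 had log2 fold changes above 0, with a median of 0.41, and none was called. Over the 9 neuronal markers the level was 3719, 3300 and 3697 CPM after CCI and 4339 and 4051 CPM after SHAM. Of these 9 log2 fold changes 4 were above 0 and 5 below, and none was called. In bulk tissue, more cells of a type and more RNA per cell cannot be told apart, and the part of these differences in the results below was not tested.

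Start-site windows of 300 bases, from 250 before to 50 after the annotated start, were available for 24 of the 32 genes from RefSeq on the build GRCr8; Fos, Jun, Egr3, Nr4a3, Arc, Dusp4, Klf2 and Ier3 were not matched. Printed first are those of the 3 genes with the smallest p in the comparison of CCI with SHAM, and then those of the 2 well-measured genes that differed most between the SHAM libraries. Capitals mark the motifs found on either strand.
Klf6, chr17:69458429-69458728, minus strand: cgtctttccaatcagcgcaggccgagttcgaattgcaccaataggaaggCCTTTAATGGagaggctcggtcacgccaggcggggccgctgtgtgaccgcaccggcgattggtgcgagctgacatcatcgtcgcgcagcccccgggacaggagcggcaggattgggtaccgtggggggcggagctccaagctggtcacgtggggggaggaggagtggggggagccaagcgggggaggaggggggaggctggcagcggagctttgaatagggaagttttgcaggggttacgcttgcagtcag
Pim1, chr20:7556246-7556545, plus strand: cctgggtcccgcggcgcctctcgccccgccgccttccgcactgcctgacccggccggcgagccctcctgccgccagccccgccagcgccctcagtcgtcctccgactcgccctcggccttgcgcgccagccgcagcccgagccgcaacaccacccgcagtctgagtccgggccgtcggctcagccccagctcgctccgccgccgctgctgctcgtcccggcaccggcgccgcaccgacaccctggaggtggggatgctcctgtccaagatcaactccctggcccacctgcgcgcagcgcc
Junb, chr19:40080876-40081175, plus strand: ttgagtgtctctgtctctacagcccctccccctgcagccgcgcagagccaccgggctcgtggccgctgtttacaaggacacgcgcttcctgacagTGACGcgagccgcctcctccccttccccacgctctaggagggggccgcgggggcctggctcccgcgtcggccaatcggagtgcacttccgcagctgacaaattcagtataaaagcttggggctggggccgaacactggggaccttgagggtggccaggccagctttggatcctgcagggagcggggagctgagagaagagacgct
Dusp1, chr10:17184603-17184902, plus strand: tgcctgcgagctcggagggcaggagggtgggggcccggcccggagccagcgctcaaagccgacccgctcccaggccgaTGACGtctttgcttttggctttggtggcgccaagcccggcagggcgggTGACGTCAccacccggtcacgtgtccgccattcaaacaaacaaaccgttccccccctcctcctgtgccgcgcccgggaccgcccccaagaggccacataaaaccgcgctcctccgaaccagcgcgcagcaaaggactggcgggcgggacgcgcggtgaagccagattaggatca
Btg2, chr13:48087641-48087940, minus strand: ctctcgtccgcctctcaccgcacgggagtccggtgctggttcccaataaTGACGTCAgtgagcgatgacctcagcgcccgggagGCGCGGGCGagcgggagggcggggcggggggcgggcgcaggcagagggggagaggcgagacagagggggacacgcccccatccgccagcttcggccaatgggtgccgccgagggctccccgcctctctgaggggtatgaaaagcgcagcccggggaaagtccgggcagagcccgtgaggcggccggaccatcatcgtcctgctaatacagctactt

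The motifs searched were the CArG box (the SRF element, given by name), the full cAMP response element TGACGTCA, its core TGACG (which the full element contains), the AP-1 site TGACTCA, the EGR site GCGNGGGCG and the STAT site TTCNNNGAA. The CArG box stood in the windows of Klf6, Egr1 and Dusp5, which is 12.5% of the 24 windows, against 1.64% of all 33469 windows in the table. In Klf6 it began at position -201, counted back from the start site. The full cAMP response element stood in 5 windows, those of Jund, Maff, Dusp1, Ier2 and Btg2 (20.8%, against 1.83% of all windows), and began at -124 in Dusp1 and at -201 in Btg2. Its core stood in 15 windows (62.5%, against 21.2%), among them that of Junb at -155. EGR sites stood in 7 windows (29.2%, against 4.98%), STAT sites in 3 (12.5%, against 8.87%) and the AP-1 site in none (against 4.63%). None of these motifs stood in the Pim1 window. In that window an ATG follows the annotated start within a few bases, so the window may cover leader sequence and not the promoter. The lack of motifs there is therefore not read as a trait of the Pim1 promoter. A match describes letters in the window and is not a binding site.

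Most of the genes stood somewhat higher after CCI, but a single gene, Klf6, rose by the criteria of the series, namely 1.5-fold or more with an adjusted p no higher than 0.05. Of the 32 genes, 31 had enough counts for edgeR's quasi-likelihood test, which gives every fold change and adjusted p below. Klf6 was called higher, none was called lower and 30 were not called. Over all 13478 tested genes 2.85% were called, 2.59% higher and 0.26% lower, so 1 call among 31 is close to the background. At an unadjusted p under 0.05, 10 of the 31 were higher (32.3%) and none was lower, against 9.65% and 6.32% of all tested genes. All 3 CCI libraries stood above both SHAM libraries for 11 of the 31, against 18.6% of all tested genes, and below both for Dusp4, against 18.1%. The log2 fold change was above 0 for 27 of 31 genes and its median was 0.36, against 51.9% above 0 and a median of 0.01 over all tested genes. These counts describe the set and are not a test of it. Without CCI 2 the median was 0.16, and 6 genes rather than 10 were higher at an unadjusted p under 0.05. Counting both directions, 14.6% of all tested genes had such a p without CCI 2, against 16.0% in the main fit. The median was 0.25 without SHAM 1.

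**Figure D1:**
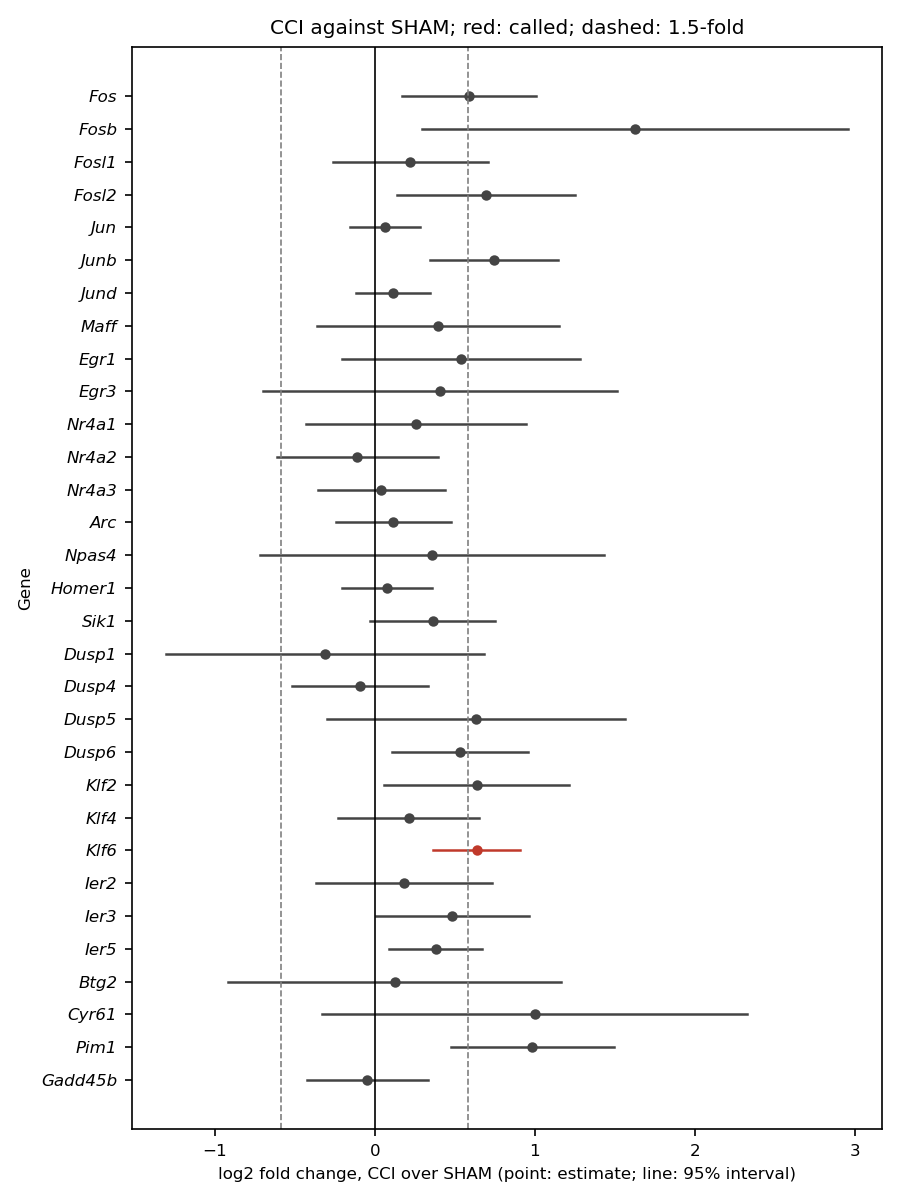
Log2 fold change of CCI over SHAM (x axis) for the 31 tested genes (y axis, in the order of their roles), with points for the estimate and lines for the 95% interval. Klf6, in red, is the gene called; 27 of the 31 points lie to the right of 0, and most intervals include 0.

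**Figure D2:**
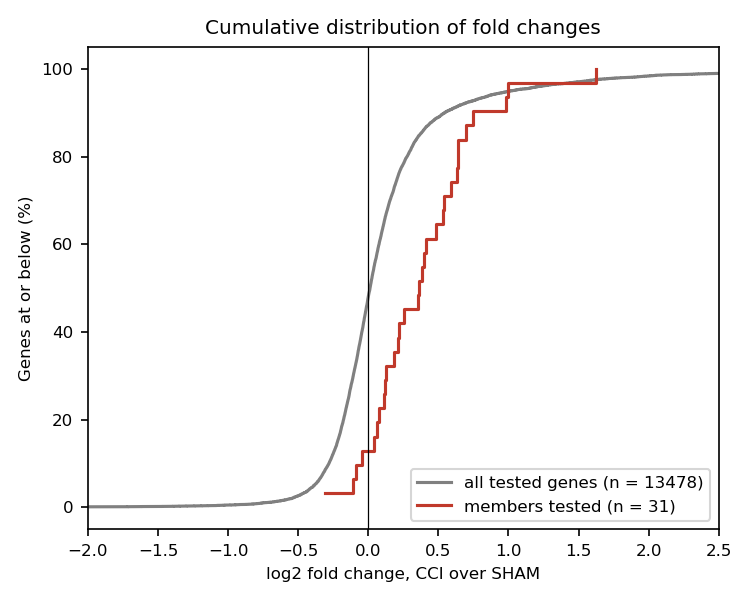
Cumulative percentage of genes (y axis) at or below each log2 fold change of CCI over SHAM (x axis), for the 31 tested genes of the set in red and all 13478 tested genes in grey. The red curve lies to the right, with a median of 0.36 against 0.01; the x axis stops at -2 and 2.5.

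The Krüppel-like factors are zinc finger transcription factors, and Klf6 is known as an early response gene of wounded vessels and of regenerating axons. Klf6 stood at 61.4, 75.5 and 70.2 CPM after CCI 1 to 3 and at 46.2 and 42.5 CPM after SHAM 1 and 2. The lowest CCI library was thus above both SHAM libraries. Its mean was 69.03 ± 7.14 CPM (SD, n = 3) in the CCI libraries against 44.4 ± 2.62 CPM (SD, n = 2) in the SHAM libraries. The log2 fold change was 0.64 (SE 0.12), or 1.56-fold (adjusted p = 0.0255). The value lies just past the 1.5-fold limit of 0.58 on the log2 scale. The call was lost, with the direction kept, when any library other than CCI 1 was left out: the log2 fold change was 0.57 without CCI 2 (adjusted p = 0.0337, under the fold limit), 0.62 without CCI 3 (adjusted p = 0.0578), 0.70 without SHAM 1 (adjusted p = 0.228) and 0.57 without SHAM 2 (adjusted p = 0.281). It was also lost with the mean level of the Schwann cell or the fibroblast markers as a covariate, at 0.53 and 0.51 (adjusted p = 0.257 and 0.175). The summed microglial markers given above were higher in all 3 CCI libraries as well, with 7 of 8 called higher. The part of these markers in the level of Klf6 was not tested.

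Klf2, which responds to blood flow in endothelium, stood at 6.02, 8.30 and 6.36 CPM after CCI and at 3.50 and 5.396 CPM after SHAM. The groups did not overlap, but the SHAM libraries lay far apart and the difference missed the threshold (log2 fold change 0.64, SE 0.26, adjusted p = 0.266). Over 8 endothelial and mural markers the summed level was 414, 491 and 423 CPM after CCI and 405 and 429.8 CPM after SHAM, and none of them was called. Flt1 and Cldn5 made up most of that sum. Of the 8, Cdh5 (2.08-fold, adjusted p = 0.193) and Pecam1 (1.43-fold, adjusted p = 0.119) had every CCI library above both SHAM libraries, as Klf2 did. Over all tested genes that share was 18.6%. The other 6 markers had overlapping groups, and among them Cldn5 (0.97-fold) and Rgs5 (0.87-fold) had estimates below 1. The part of these markers in the level of Klf2 was not tested. Klf4 stood at 5.65, 6.87 and 6.73 CPM after CCI and at 5.68 and 5.396 CPM after SHAM, with overlapping groups and a log2 fold change of 0.21 (95% interval -0.23 to 0.65, adjusted p = 0.619).

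**Figure D3:**
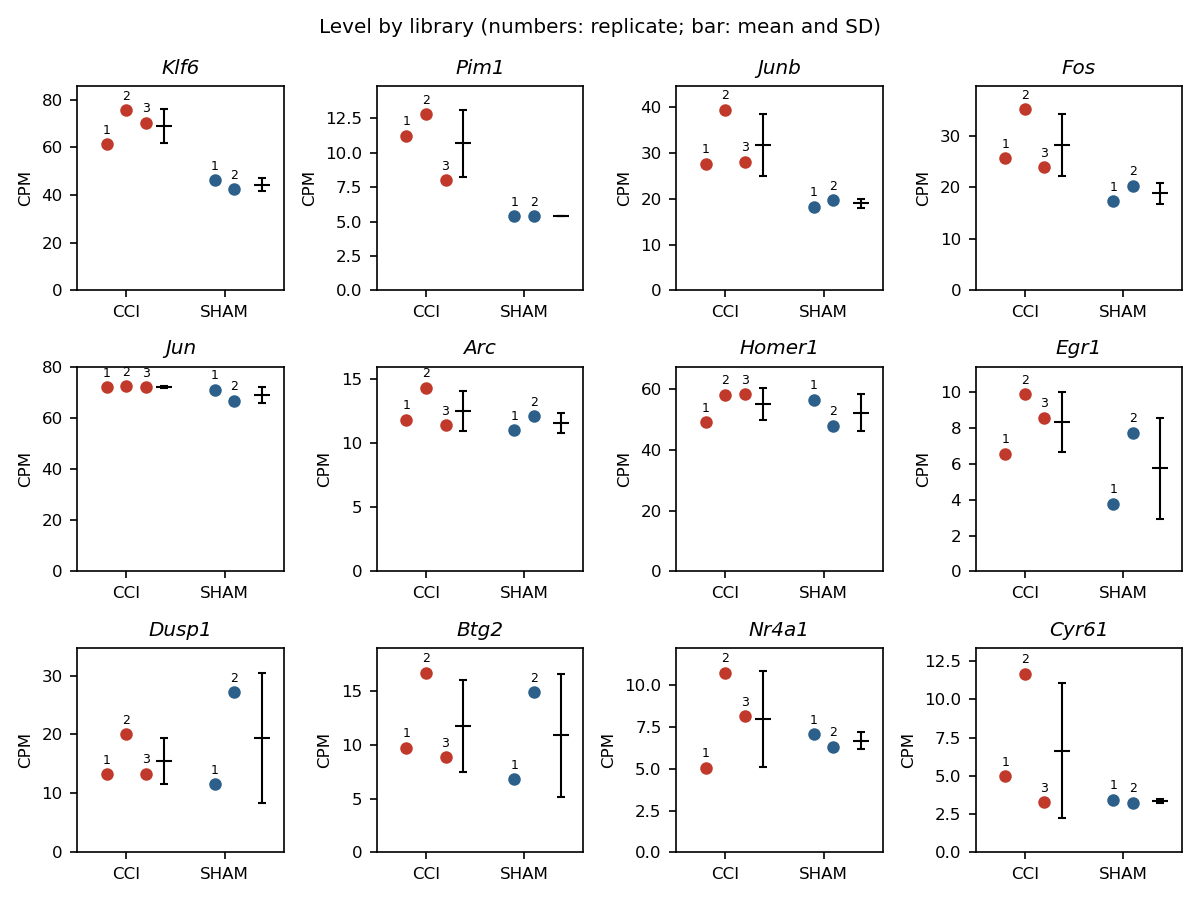
CPM (y axis, starting at 0) of 12 genes in each CCI (red) and SHAM (blue) library, with replicate numbers beside the points and black bars for the mean and SD of each group. Klf6, Pim1, Junb and Fos show CCI points above all SHAM points; Jun, Arc and Homer1 lie close together; Egr1, Dusp1 and Btg2 differ widely between SHAM 1 and SHAM 2.

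AP-1 is a dimer of a Fos protein with a Jun protein, or of Jun proteins, and none of its 8 genes passed the test. All 8 log2 fold changes were above 0, from 0.07 to 1.63 with a median of 0.49. In 5 of the 8 every CCI library was above both SHAM libraries, against 18.6% of all tested genes. These 5 include Jun, which had the smallest estimate of the 8, at 0.07. Junb, a subunit that often tempers the activity of Jun, came closest. It stood at 27.7, 39.5 and 28.1 CPM after CCI and at 18.3 and 19.7 CPM after SHAM. CCI 2 was the highest of the 5, and the other CCI libraries were close to each other and above SHAM. The log2 fold change was 0.74 (SE 0.17, 95% interval 0.35 to 1.14, adjusted p = 0.0657). Junb was called by the likelihood ratio test, by DESeq2, with library size as the sole scaling, without a low-count filter and without CCI 1, and in none of the other alternatives.

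Fos, the usual marker of recently active spinal neurons, stood at 25.6, 35.1 and 23.9 CPM after CCI and at 17.3 and 20.3 CPM after SHAM. The groups did not overlap, and CCI 3 and SHAM 2 were the nearest pair. Its log2 fold change was 0.59 (SE 0.18, 95% interval 0.17 to 1.01, adjusted p = 0.163), and it was called in none of the alternatives. Fosl2, a Fos relative with slower kinetics, stood at 4.44, 6.19 and 5.25 CPM after CCI and at 3.59 and 2.95 CPM after SHAM, again without overlap (log2 fold change 0.69, SE 0.24, adjusted p = 0.206). Fosb, whose splice form deltaFosB accumulates under repeated stimulation, had the largest estimate of the set and rested on few counts. It had 15, 29 and 42 counts after CCI and 7 and 11 in SHAM, or 0.694, 1.15 and 2.23 CPM against 0.318 and 0.55 CPM. Its log2 fold change was 1.63 with a 95% interval from 0.30 to 2.96 (adjusted p = 0.214), and all 3 CCI libraries but 1 SHAM library reached the level that the low-count filter asks for. The row is a gene total, so splice forms were not separated.

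Jun, which is also induced in neurons by axon injury, was nearly level across libraries. It stood at 72.2, 72.5 and 72.1 CPM after CCI and at 71.2 and 66.9 CPM after SHAM. The CCI libraries were all above SHAM, but by little: the log2 fold change was 0.07, with a 95% interval from -0.15 to 0.28 that excludes a 1.5-fold difference (adjusted p = 0.77). Jund, the most constitutive of the Jun genes, ranged from 151 to 174 CPM after CCI and stood at 152 and 148 CPM after SHAM (log2 fold change 0.11, adjusted p = 0.611). Its counts were partly fractional, meaning that reads could be shared with another row, and are uncertain. Fosl1 (log2 fold change 0.22, adjusted p = 0.638) and Maff, a small Maf protein without a transactivation domain (0.40, adjusted p = 0.586), had overlapping groups.

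Among the 7 other immediate early genes none passed the test. In 3 of them every CCI library was above both SHAM libraries, against 18.6% of all tested genes. Pim1, a serine/threonine kinase gene induced through STAT factors by cytokines, stood at 11.2, 12.8 and 8.01 CPM after CCI and at 5.41 and 5.396 CPM after SHAM. The SHAM libraries were nearly equal, and the lowest CCI library, CCI 3, was well above both. The log2 fold change was 0.99 (SE 0.22, 1.98-fold, adjusted p = 0.055), a larger fold than that of Klf6 with a p just outside the threshold. Pim1 was called by the likelihood ratio test, by DESeq2, with library size as the sole scaling, without a low-count filter, without CCI 3 (1.15, adjusted p = 0.0189), and with CCI 1 as the sole CCI library (1.04, adjusted p = 0.0219). In the last of these the CCI group is a single library, so the spread comes from the SHAM libraries alone. Pim1 was not called with the Schwann cell or the fibroblast markers as a covariate (adjusted p = 0.127 and 0.118).

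Ier5, a regulator of heat shock factor and phosphatase activity, stood at 22.7, 23.5 and 19.99 CPM after CCI and at 17.2 and 16.7 CPM after SHAM, without overlap (log2 fold change 0.38, SE 0.13, adjusted p = 0.187). Ier3, an inhibitor of apoptosis in many cells, stood at 6.06, 7.46 and 7.58 CPM after CCI and at 4.41 and 5.65 CPM after SHAM, where CCI 1 and SHAM 2 nearly met (0.49, SE 0.21, adjusted p = 0.308). Ier2 stood at 12.7, 15.8 and 10.1 CPM after CCI and at 9.05 and 13.7 CPM after SHAM, with overlapping groups (0.18, adjusted p = 0.738). Cyr61, a secreted matrix protein gene that responds to mechanical stress and is now named Ccn1, had 1 library apart. It stood at 5.0, 11.7 and 3.29 CPM after CCI and at 3.45 and 3.25 CPM after SHAM. CCI 2 thus set the group mean, and the log2 fold change of 1.0 (95% interval -0.33 to 2.32, adjusted p = 0.431) became 0.31 without it. Gadd45b, a DNA damage and demethylation gene, ranged from 7.98 to 9.81 CPM over the 5 libraries (-0.05, adjusted p = 0.918).

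None of the 5 tested EGR and NR4A genes passed the test or had groups apart. Egr1, a zinc finger factor induced with Fos by synaptic input, stood at 6.57, 9.88 and 8.59 CPM after CCI and at 3.77 and 7.74 CPM after SHAM. The SHAM libraries differed by 2.05-fold, so that SHAM 2 lay within the CCI range (log2 fold change 0.54, SE 0.32, 95% interval -0.20 to 1.28, adjusted p = 0.449). The estimate was 1.14 without SHAM 2 and 0.11 without SHAM 1. The orphan nuclear receptor gene Nr4a1 stood at 5.04, 10.7 and 8.11 CPM after CCI and at 7.05 and 6.30 CPM after SHAM. CCI 1 was the lowest and CCI 2 the highest of all 5 libraries (0.26, adjusted p = 0.705), and the sign turned without CCI 2 (-0.023). Nr4a2 (-0.11, with fractional counts) and Nr4a3 (0.04) ranged from 4.08 to 5.68 CPM and from 6.63 to 7.59 CPM over the 5 libraries. Egr3 had 12, 42 and 22 counts after CCI and 20 and 16 in SHAM (0.41, 95% interval -0.70 to 1.51, adjusted p = 0.711), and -0.0069 without CCI 2. Egr4, the gene left untested, had 5, 10 and 7 counts after CCI and 5 and 3 in SHAM.

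None of the 4 genes known for neuronal activity passed the test, and all 4 had overlapping groups. Their log2 fold changes ran from 0.08 to 0.36, with a median of 0.24. Arc, which acts at the postsynapse in receptor trafficking, stood at 11.8, 14.3 and 11.4 CPM after CCI and at 11.0 and 12.1 CPM after SHAM. The groups overlapped, and the log2 fold change of 0.12 had a 95% interval from -0.24 to 0.48, which excludes a 1.5-fold rise (adjusted p = 0.75). Homer1, a scaffold of metabotropic glutamate receptors with an activity-induced short form, stood at 49.0, 58.1 and 58.2 CPM after CCI and at 56.4 and 48.0 CPM after SHAM. Here too the interval of the log2 fold change excluded 1.5-fold (0.08, 95% interval -0.20 to 0.36, adjusted p = 0.788); the short and long forms were not separated. Npas4, a transcription factor restricted to depolarized neurons, had 25, 52 and 22 counts after CCI and 36 and 13 in SHAM, with an interval from -0.72 to 1.43 that leaves the direction undetermined (adjusted p = 0.743). Sik1, a kinase that restrains CREB coactivators, stood at 14.4, 16.6 and 18.9 CPM after CCI and at 11.3 and 14.6 CPM after SHAM (0.36, adjusted p = 0.353), with fractional counts. Whether Junb, Pim1 or Klf6 differed from Arc or Homer1 in their response was not tested.

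The MAP kinase phosphatases switch off the kinases that induce them, and none of the 4 passed the test. Dusp6, which acts on ERK, stood at 36.7, 41.7 and 30.2 CPM after CCI and at 21.0 and 29.2 CPM after SHAM. The groups did not overlap, though CCI 3 and SHAM 2 were close (log2 fold change 0.53, SE 0.18, adjusted p = 0.208). Dusp1, a nuclear phosphatase induced by stress and glucocorticoids, stood at 13.2, 20.05 and 13.4 CPM after CCI and at 11.6 and 27.2 CPM after SHAM. SHAM 1 was the lowest and SHAM 2 the highest of the 5 libraries. The log2 fold change of -0.31 (95% interval -1.30 to 0.68, adjusted p = 0.739) was therefore -0.80 without SHAM 1 and 0.42 without SHAM 2. Dusp5 had 48, 61 and 26 counts after CCI and 19 and 35 in SHAM (0.63, 95% interval -0.30 to 1.57, adjusted p = 0.481). Dusp4 ranged from 5.24 to 5.67 CPM after CCI and stood at 5.82 and 5.90 CPM after SHAM, a log2 difference of -0.09 (adjusted p = 0.846).

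Several of the genes differed more between the SHAM libraries than between the groups. SHAM 2 stood above SHAM 1 by 2.34-fold for Dusp1, 2.18-fold for Btg2, 2.05-fold for Egr1 and 2.02-fold for Dusp5. Npas4 went the other way, with a SHAM 2 to SHAM 1 ratio of 0.397 on 36 counts in SHAM 1 and 13 in SHAM 2. Btg2, an antiproliferative gene induced by p53 and by growth factors, stood at 9.72, 16.7 and 8.86 CPM after CCI and at 6.82 and 14.9 CPM after SHAM, with a log2 fold change of 0.12 (adjusted p = 0.911) that was 0.78 without SHAM 2 and -0.34 without SHAM 1. Dusp1 and Btg2 both carry the full cAMP response element in the windows shown above, as do Jund, Maff and Ier2, whose SHAM 2 to SHAM 1 ratios were 0.978, 0.647 and 1.51. The shift was not general: SHAM 2 exceeded SHAM 1 for 15 of 31 genes, against 50.9% of all tested genes. The median ratio of the higher to the lower SHAM library was 1.18 over the 31 genes and 1.11 over all tested genes.

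Within the CCI group, CCI 2 was usually the highest. It was the highest of all 5 libraries for 20 of the 31 genes, against 23.0% of all tested genes. Among the CCI libraries it was the highest for 21 of the 31, against 34.6% of all tested genes. The median of the log2 level over the SHAM mean was 0.58 in CCI 2, 0.22 in CCI 1 and 0.18 in CCI 3, while over all tested genes it was at most 0.01 in size in each. Exceptions with their highest level in CCI 3 were Fosb, Homer1, Sik1 and Ier3, and in CCI 1 Jund, Maff, Nr4a3 and Gadd45b. The median ratio of the highest to the lowest CCI library was 1.38 over the 31 genes, against 1.22 over all tested genes. CCI 2 also had the highest summed fibroblast, microglial, dorsal horn, and endothelial and mural markers of the 5 libraries. It had the lowest summed neuronal (3300 CPM), motor neuron (72.6 CPM) and dorsal root ganglion neuron (78.6 CPM) markers. Prph alone, at 56.9 CPM in CCI 2, made up most of the last sum. The neuronal markers were split: Snap25, Tubb3 and Slc6a5 were lowest in CCI 2, while Syt1, Slc17a6 and Gad2 were highest there. The other neuronal markers were neither lowest nor highest in CCI 2. The part of these markers in the levels of CCI 2 was not tested.

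**Figure D4:**
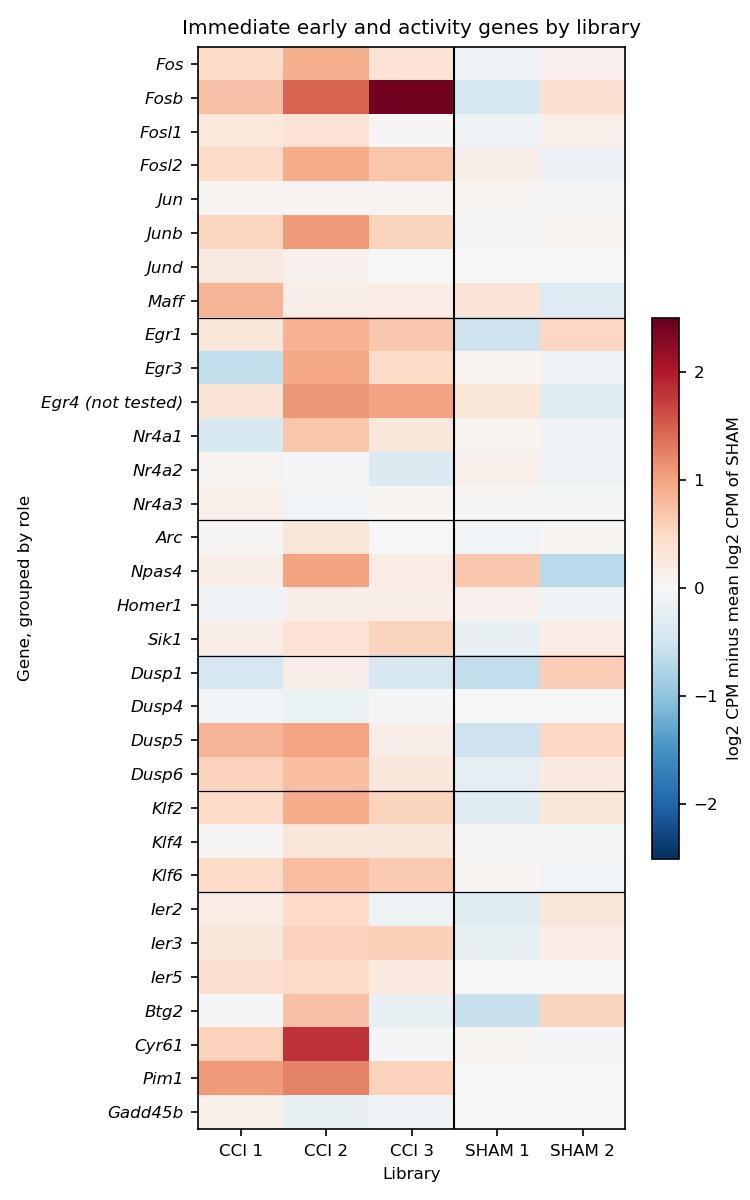
Log2 CPM of each of the 32 genes (rows, grouped by role between the horizontal lines) in each library (columns), minus the gene's mean log2 CPM after SHAM; red is above and blue below that mean. The CCI 2 column is the reddest, with Cyr61 the highest there, and the Dusp1, Btg2 and Egr1 rows are blue in SHAM 1 and red in SHAM 2.

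On the deposited values, which are per transcript length and so allow levels of different genes to be compared, Jund was the most abundant of the 32, with a mean of 124 over the 5 libraries. Jun followed at 28.7, Fos at 20.9, Junb at 19.5, Klf6 at 17.3 and Homer1 at 16.4. Jund was above every other gene in every library. The order from Jun to Homer1 was less firm: Fos ranged from 14.7 to 30.5, Junb from 13.3 to 29.3, Klf6 from 12.3 to 22.3 and Homer1 from 14.4 to 18.0, so these 4 neighbours did not differ beyond their spread over libraries. Arc was at 5.03, Nr4a1 at 3.83 and Npas4 at 0.697, and Fosb and Egr4 were the lowest at 0.383 and 0.168.

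Genes placed upstream and downstream of these were read from lists chosen with earlier results of the same data known, against the same background of 2.59% called higher and 0.26% lower. Of the upstream kinases and transcription factors, including SRF, CREB and MAP kinase genes, 29 were tested and none was called (Elk3, with fractional counts, 0.57, adjusted p = 0.0653; Rps6ka1 0.35, adjusted p = 0.163). Of 12 partners and repressors of AP-1 and EGR factors, 2 were called higher. Batf, a leukocyte AP-1 partner among these, had 11, 17 and 12 counts after CCI and 2 and 1 in SHAM, too few for a fold to be given (adjusted p = 0.0427). All 3 CCI libraries but no SHAM library reached the level that the low-count filter asks for. Batf was thus tested only through the group where it was higher, and its call is not read as a rise. It was called in 10 of 18 alternatives, and the call was lost with DESeq2, without a low-count filter, with either marker covariate and when CCI 2, CCI 3 or either SHAM library was left out.

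Of 22 further rapid response genes 4 rose and none fell. Cebpd, an acute phase transcription factor gene of astrocytes and myeloid cells, stood at 17.0, 11.2 and 12.6 CPM after CCI and at 3.27 and 3.05 CPM after SHAM (log2 fold change 2.10, SE 0.23, adjusted p = 0.00173). The genes of the RNA-decay proteins Zfp36l1 (0.96, SE 0.14, adjusted p = 0.00642) and Zfp36l2 (0.77, SE 0.12, adjusted p = 0.0108) rose with it, as did Cebpb (0.71, SE 0.15, adjusted p = 0.0462), named because it completes the set. The call of Cebpb was lost with limma-voom, with RLE factors, on the deposited values with a pseudocount of 0.5, with either marker covariate and without CCI 2 or CCI 3. Those of Zfp36l1 and Zfp36l2 were lost with the Schwann cell covariate, and that of Zfp36l2 also with the fibroblast covariate and on the unfiltered deposited values. Cebpd was called with both covariates. None of 13 further ERK feedback inhibitors passed (Dusp2 1.30, adjusted p = 0.218; Dusp8 0.21, adjusted p = 0.41). None of 15 late response genes of neurons passed (Nptx2 0.68, adjusted p = 0.105; Pdyn 0.99, adjusted p = 0.117). Without SHAM 1 or SHAM 2 the SHAM group is a single library, and calls became rare over all genes, these 5 lists included. With single libraries left out, the log2 fold change ran from 1.91 to 2.23 for Cebpd. It ran from 0.85 to 1.02 for Zfp36l1 and from 0.65 to 0.89 for Zfp36l2. The 7 called microglial markers were higher in the same libraries as Batf and Cebpd. Of 5 astrocyte markers Gfap was called higher (2.05-fold, adjusted p = 0.0138). Of those 5, 3 had log2 fold changes above 0 and 2 below. The part of these markers in the levels of Batf and Cebpd was not tested.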

How the data were processed

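Dorsal horn RNA was sequenced by Illumina HiSeq per the series text, and each library's group is its treatment label; replicate numbers only follow accession order. The authors deposited estimated counts for each gene symbol. Per the submitters' processing notes these were made with kallisto 0.44.0 and build rn6; the annotation is not given in the sources used here. An estimated count can be fractional if reads match several rows. The second table the authors deposited holds a signal per transcript length, named TPM in the file and scaled by trimmed mean of M-values before deposit per the series text; column totals vary, so it was not read as plain TPM.

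The estimated counts were first rounded. Of 17321 genes, 13478 passed filterByExpr (minimum count 10). They were fitted in edgeR 4.0.16 (R 4.3.3) with TMM scaling, robust glmQLFit and a two-sided glmQLFTest on 3 residual degrees of freedom, and p-values were adjusted over all of them by Benjamini-Hochberg. Calls needed 1.5-fold or more and an adjusted p no higher than 0.05, as the series text states. Each SE is the absolute log2 fold change over the root of F, and 95% intervals follow from it and the t distribution. CPM use TMM-scaled totals of the tested genes. Groups do not overlap where every CCI library is above, or every one below, both SHAM libraries. Low counts are limited by counting error.

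All 32 members were named; those with an unadjusted p under 0.05 and 13 fixed ones were to be given by library, and others were added where a library stood apart. In each pathway list up to 3 called genes, or else the 2 with the smallest p, were named. One called gene of the AP-1 and EGR partner list is not reported here. The members and lists were chosen with earlier results of these data known. As alternatives, DESeq2 1.42.0, limma-voom (limma 3.58.1) and the likelihood ratio test were run, with other scalings and filters, the deposited signal on a log2 scale (pseudocounts 0.5 and 0.1), marker levels as covariates, and leaving out libraries. Scripts were tested on simulated data. Start-site windows are from RefSeq (GRCr8) and were matched by symbol or, for Cyr61, by synonym.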

Additional observations from a re-analysis of the deposited data

How the results depend on the processing

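The log2 fold change was above 0 for 24 to 28 of the genes tested in each alternative, against 27 of 31, and Klf6 kept its direction in all 20. The 1 call became 3 with the likelihood ratio test, DESeq2, library size as the sole scaling or no low-count filter, and 0 with the deposited values without a filter or with Schwann cell or fibroblast markers as a covariate; leaving out single libraries gave 0 to 2. Genes of the set higher at an unadjusted p under 0.05 numbered 5 with either covariate and 4 to 12 with libraries left out, and 0 to 1 were lower. The set's median ran from 0.16 to 0.46 with libraries left out. Calls in the pathway lists were 12 with the likelihood ratio test, 10 with DESeq2, 2 with the Schwann cell and 3 with the fibroblast covariate, and 0 to 12 with libraries left out. Calls over all genes were 646 with the likelihood ratio test, 614 with DESeq2, 227 with unfiltered deposited values, 171 with the Schwann cell covariate, 254 with the fibroblast covariate, and 61 (without SHAM 1) to 763 (without CCI 1). Where 1 SHAM library is left, its spread is taken from the other group.

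Some uncalled genes changed sign; the cause was not tested. With the Schwann cell covariate, the fibroblast covariate and CCI 1 as the sole CCI library, in that order, Egr3 was -0.27, -0.41 and -0.63, Nr4a1 -0.19, -0.27 and -0.42, Nr4a2 0.11, 0.038 and 0.040, Homer1 -0.030, -0.040 and -0.10, Btg2 -0.11, -0.17 and -0.17, and Gadd45b 0.085, 0.087 and 0.11. Npas4 was -0.013 with CCI 1 alone. With single libraries left out, the ranges that crossed 0 were -0.0069 to 0.74 for Egr3, -0.023 to 0.50 for Nr4a1, -0.24 to 0.027 for Nr4a2, -0.0066 to 0.093 for Nr4a3, -0.16 to 1.17 for Npas4, -0.043 to 0.20 for Homer1, -0.80 to 0.42 for Dusp1, -0.087 to 0.50 for Ier2, -0.34 to 0.78 for Btg2 and -0.14 to 0.019 for Gadd45b. No paired analysis was possible because the labels give no replicate numbers shared between the groups.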

Other observations

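Ratios of 2 genes within a library do not depend on the scaling of libraries. The ratio of Junb to Jun counts was 0.384, 0.545 and 0.39 for CCI 1 to 3 against 0.257 and 0.294 for SHAM 1 and 2, a mean log2 difference of 0.66 with no overlap between groups. The ratio of Klf6 to Klf4 was 10.9, 11.0 and 10.4 in CCI and 8.14 and 7.88 in SHAM, a log2 difference of 0.43, again with no overlap. Both gave p = 0.1 in a two-sided exact permutation test, below which 5 libraries with their 10 possible splits cannot go (adjusted p = 0.2 over 4 ratios). The ratios of Fos to Jun (0.354, 0.484 and 0.332 against 0.243 and 0.303) and of Dusp6 to Dusp4 (6.55, 7.95 and 5.33 against 3.60 and 4.96) also lay above SHAM in all 3 CCI libraries, with log2 differences of 0.50 and 0.63 and an exact permutation p of 0.2 each. The 4 pairs were chosen after the values had been seen, and they compare counts of genes of unequal length, so only the change between libraries can be read from them.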
